A study of Mus musculus with 4 samples.

Results

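The collagen genes of the mouse, with the exception of Col4a1 and Col4a2, were taken by their symbols from a table of gene counts of embryonic stem cells (ESCs). The symbol had to be Col, the number of the collagen type, the letter a and the number of the chain, and 42 of the 55418 rows of the table met this rule. Col4a1 and Col4a2, the chains of the main collagen network of basement membranes, are given only once below for comparison.

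Collagens are extracellular proteins in which 3 chains wind into a triple helix, and the helix forms only where the chain carries glycine at regular steps. Fibrillar collagens pack into the fibrils of tendon, bone, skin and cartilage, fibril-associated collagens sit on the surface of such fibrils, network collagens form sheets, and transmembrane collagens remain on the cell surface. The chains are hydroxylated, glycosylated and folded in the endoplasmic reticulum, exported in large carriers, trimmed by proteases outside the cell and cross-linked by lysyl oxidases. ESCs deposit mainly basement membrane in culture, while fibrils are a feature of connective tissue.

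The cells were of the ESC line E14, recorded with the strain 12910la, and all were grown on gelatin with serum and LIF, a cytokine that holds ESCs undifferentiated. Wild-type (WT) cells were compared with Pim3-/- cells, which lack the serine/threonine kinase PIM3 after CRISPR/Cas9 editing with guides in its exons. Each group had 2 libraries, the WT libraries from separate samples of the parental cells and the Pim3-/- libraries from different clones. Whether replicate 1 or 2 is clone 1 is not given in the sources used here, and an effect of Pim3 cannot be told apart from differences between the cultures and clones themselves. Because RNA came from whole cultures, a change in the share of cells that express a gene cannot be told apart from a change in RNA per cell.

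The libraries held between 22029427 and 25668307 counts, and 3 counts correspond to 0.1123 to 0.1565 CPM, the unit in which counts are set against library size after scaling by TMM factors. Pim3 had 4392 and 4953 counts in WT, against 4970 and 4804 counts in Pim3-/- libraries, with a log2 fold change of -0.27 (standard error 0.17, edgeR adjusted p = 0.251). A deletion inside exons need not lower the count of a gene, so Pim3 does not check the labels, and the groups are those of the labels. All 10 pluripotency markers were detected, at a summed 9800 to 10900 CPM in WT and 6720 to 7110 CPM in Pim3-/- libraries, with 1 higher and 4 lower. For this list and those below, 17.6% of all tested genes were higher and 16.2% lower (edgeR adjusted p under 0.05). Of the 11 tested primitive endoderm markers 9 were higher and 0 lower. The summed level of the 13 on the list was 274 to 331 CPM in WT and 458 to 565 CPM in Pim3-/-. Most of that sum came from the laminin chains Lamc1 (mean 224 and 251 CPM, not called), Lamb1 (43.5 and 121 CPM) and Lama1 (29.4 and 103 CPM). Gata4, Gata6, Sox17, Sox7 and Dab2 reached at most 6.85 CPM in the mean of either group. Sox17, Sox7 and Dab2 passed the filter on low counts only by their Pim3-/- counts, which favours increases. Fibroblast markers summed to 36.7 to 37.7 CPM in WT and 61 to 66.1 CPM in Pim3-/-, with 4 of 7 tested genes higher, 1 (S100a4) lower and Prrx1 and Fap at 0 in all libraries, and Pdgfrb, at a mean of 5.79 and 24.0 CPM, held most of the difference. Mesoderm markers summed to 6 to 6.52 and 14.2 to 25.5 CPM, with 1 of 5 tested genes higher, Eomes, which went from a mean of 3.45 to 16.3 CPM, while T and Mesp1 stayed below 0.5 CPM in the mean of either group. Cartilage markers summed to 5.87 to 6.94 and 15.8 to 21.4 CPM. Neuroectoderm markers were at 130 to 138 CPM in WT and 76.8 to 97.5 CPM in Pim3-/-. The part of these marker changes in the collagen results was not tested.

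More collagens were detected in Pim3-/- ESCs, and their summed mRNA level was higher. A count was found for 33 and 37 of the 42 collagens in the WT libraries and for 40 and 38 in the Pim3-/- libraries. At least 10 counts were found for 17 and 21 against 29 and 28. Detection by library was not compared with that of all genes. In the range of the 7 collagens of lowest level, 26.7% of all tested genes were higher and 2.11% lower. The detection counts were therefore not read as particular to collagens. The collagens together reached 285 and 305 CPM in WT replicates 1 and 2 and 328 and 396 CPM in Pim3-/- replicates 1 and 2. Col18a1 made up 77.9% and 79.85% of these collagen counts in WT, against 52.06% and 57.33% in Pim3-/-. Without it the sums were 63.0 and 61.5 CPM in WT and 157 and 169 CPM in Pim3-/-. Most of this difference lay in the fibril-associated and fibrillar classes, as the plots of CPM by library and of class sums show, and the sums of the anchoring fibril and other collagens did not separate the groups.

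**Figure D1:**
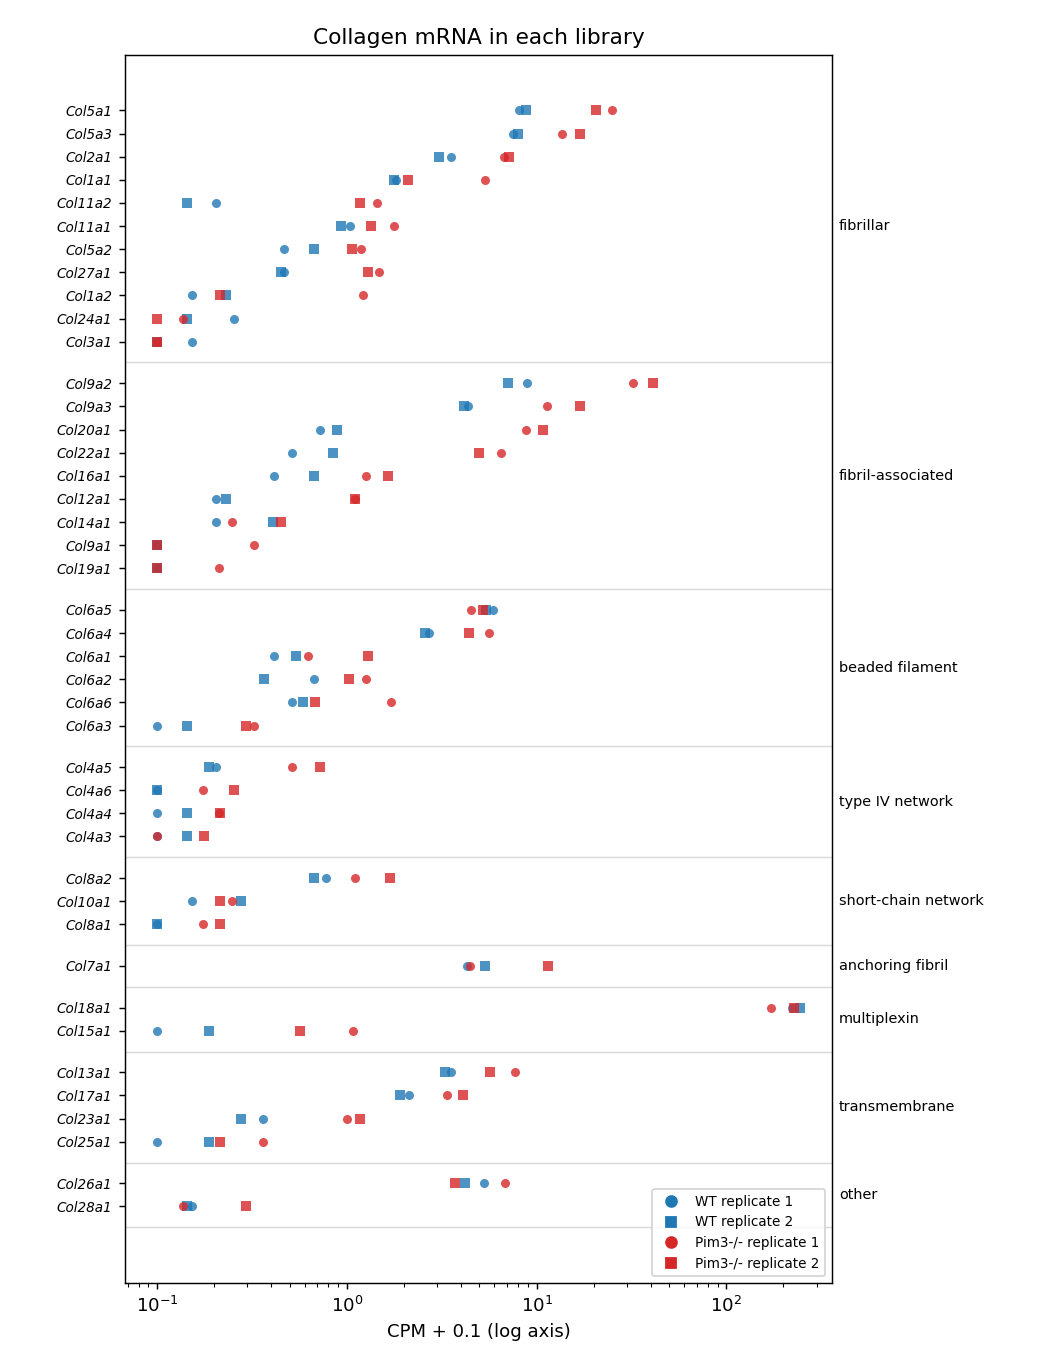
CPM of each of the 42 collagens in the 4 libraries, with 0.1 CPM added and a log axis, grouped by structural class and ordered within a class by level per kb. The red points of Pim3-/- lie to the right of the blue points of WT for most rows, while for Col18a1, at 171 to 244 CPM, they overlap.

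Of the 42 collagens, 28 had enough counts for edgeR's quasi-likelihood test across all genes. With p-values adjusted by the Benjamini-Hochberg method over 18444 genes, 16 were higher in Pim3-/- (adjusted p under 0.05) and 0 were lower, where 17.6% of all tested genes were higher and 16.2% lower. At unadjusted p under 0.05 the number of collagens was 18, each of them with a positive fold change. A 3-fold or larger increase was found for 10 collagens (8.47% of all tested genes) and a 3-fold decrease for 0 (1.38%). Both Pim3-/- libraries lay above both WT libraries for 24 of the 28 (38.3% of all tested genes) and below them for 1, Col6a5 (34.2%). The log2 fold changes ran from -0.23 to 3.98 with a median of 1.22, beside a median of 0.07 over all tested genes. The fitted values of 4 of them, Col4a5, Col11a2, Col12a1 and Col15a1, depend on the prior count, because no WT library had more than 3 counts.

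Some collagens could be tested only because of their counts in Pim3-/- ESCs, which favours increases. The WT libraries alone passed 16 of the 28 through the filter on low counts, and 8 of these 16 were higher, where 14.3% of the 16018 genes that pass in this way were higher. Their median log2 fold change was 0.99, beside -0.05 for those 16018 genes. The other 12 passed only by their Pim3-/- counts, and 8 of them were higher. Because that way past the filter favours increases over all genes too, these 8 are no measure of direction. The 12 were Col4a5, Col5a2, Col6a1, Col6a2, Col6a6, Col11a2, Col12a1, Col15a1, Col16a1, Col22a1, Col23a1 and Col27a1. Their part in the counts above of 3-fold increases and of separated libraries is no measure of direction either. Of the collagens at least 3-fold higher, only Col9a2, Col9a3 and Col20a1 passed by their WT counts. In numbers, 2294 of the 16018 genes and 3246 of all 18444 tested genes were higher. Among all tested genes an increase was also more frequent at low levels, with 26.7% higher in the range of the 7 collagens of lowest level and 14.4% in the range of the 7 of highest level.

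Nearly every call on a single collagen needed both WT libraries. Without WT replicate 1 the number higher was 3, and without WT replicate 2 it was 4, when 2.03% and 2.95% of all tested genes were higher. Without Pim3-/- replicate 1 it was 19 and without Pim3-/- replicate 2 it was 18, with 28.3% and 25.5% of all tested genes higher. Col20a1, Col9a2 and Col22a1 kept their call under every alternative in which they were tested (Col22a1 had too few counts for the filter on every library), and Col5a1 under all but the omission of WT replicate 1 (edgeR adjusted p = 0.066). The other 12 called collagens lost it when either WT library was left out. With all 4 libraries some calls were lost by the DESeq2 Wald test. These were Col4a5, Col6a4, Col13a1, Col16a1, Col23a1 and Col27a1 (Wald adjusted p = 0.204, 0.104, 0.0576, 0.144, 0.0954 and 0.0958). Col6a4 and Col16a1 also lost the call with size factors of DESeq2 and without a filter. Col4a5 lost it without a filter, and Col6a4 with the replicate number as a block. Scaling by library totals instead of TMM factors raised the median of all genes from 0.07 to 0.52 on the log2 scale and that of the collagens from 1.22 to 1.66, and turned the sign of 2 collagens, Col18a1 and Col6a5.

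**Figure D2:**
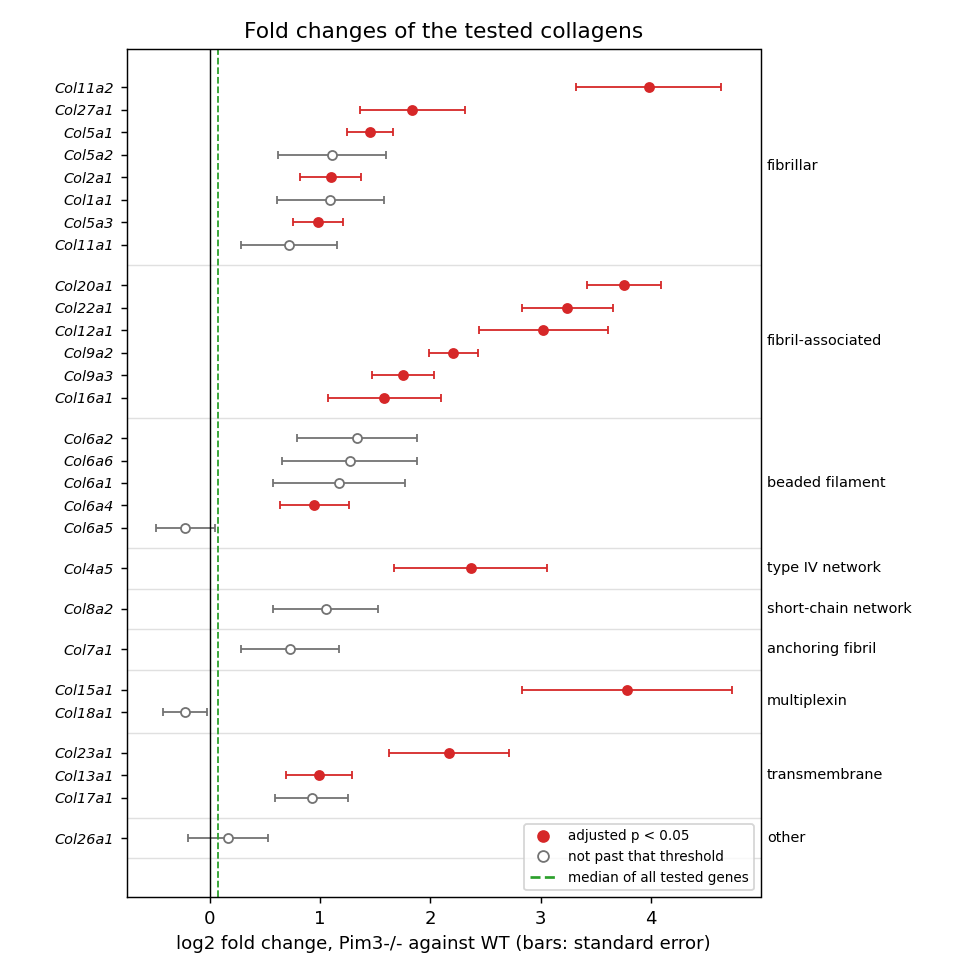
Log2 fold change of the 28 tested collagens, Pim3-/- against WT, with standard errors as bars, by structural class. Filled red points passed an adjusted p of 0.05 (16 collagens), open points did not, and the dashed line is the median of all tested genes at 0.07, to the left of which lie Col18a1 and Col6a5.

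The collagen genes share an exon pattern that the choice by symbol did not use. In their longest coding transcripts, 466 of 1906 coding exons (24.4%) were 54 bases long, against 0.443% of coding exons in 21984 other protein-coding genes, and 62.7% against 14% had a length divisible by 9, the bases of a Gly-X-Y repeat. An exon of 54 bases with a glycine codon at the start of each of its 6 Gly-X-Y repeats was found 31 times in Col11a1, Col11a2 and Col5a3, 29 times in Col5a1, 28 times in Col22a1 and 14 times in each of Col9a1, Col9a2 and Col9a3. Col20a1 and Col12a1 had 4, Col18a1 had 1, and Col8a2 and Col17a1 had 0. Col22a1 with many and Col20a1 with few such exons were both among the collagens that were higher. An exon of this kind is shown for 5 of the collagens that were higher, from the GENCODE transcripts on GRCm38, with the first codon of each repeat, which is the glycine, in capitals. Glycine can also stand in the other places of a repeat, and such codons are in lower case. Col9a2 exon 5 lies at chr4:121043696-121043749, Col9a3 exon 6 at chr2:180601582-180601635, Col5a1 exon 15 at chr2:27965251-27965304 and Col11a2 exon 15 at chr17:34051480-34051533, all on the plus strand, and Col22a1 exon 13 at chr15:71952523-71952576 on the minus strand.
Col9a2: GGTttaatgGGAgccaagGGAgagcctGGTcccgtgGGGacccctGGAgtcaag
Col9a3: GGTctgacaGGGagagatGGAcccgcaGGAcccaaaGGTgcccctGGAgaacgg
Col5a1: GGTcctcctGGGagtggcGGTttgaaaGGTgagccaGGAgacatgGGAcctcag
Col11a2: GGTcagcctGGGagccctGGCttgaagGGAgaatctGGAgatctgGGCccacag
Col22a1: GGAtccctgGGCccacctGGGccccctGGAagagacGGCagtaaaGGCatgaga

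The 9 fibril-associated collagens included 3 that the WT counts alone passed through the filter, Col9a2, Col9a3 and Col20a1. Each of these was higher, with log2 fold changes of 2.21, 1.75 and 3.76, where 14.3% of all genes that pass in this way were higher. Col12a1, Col16a1 and Col22a1 were higher as well, but passed the filter only by their Pim3-/- counts, and the remaining 3 were not tested. The summed level of the class was 14.7 and 13.6 CPM in WT and 61.2 and 76.3 CPM in Pim3-/- libraries. This was the class with the largest summed gain in CPM, as the plot of class sums shows.

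**Figure D3:**
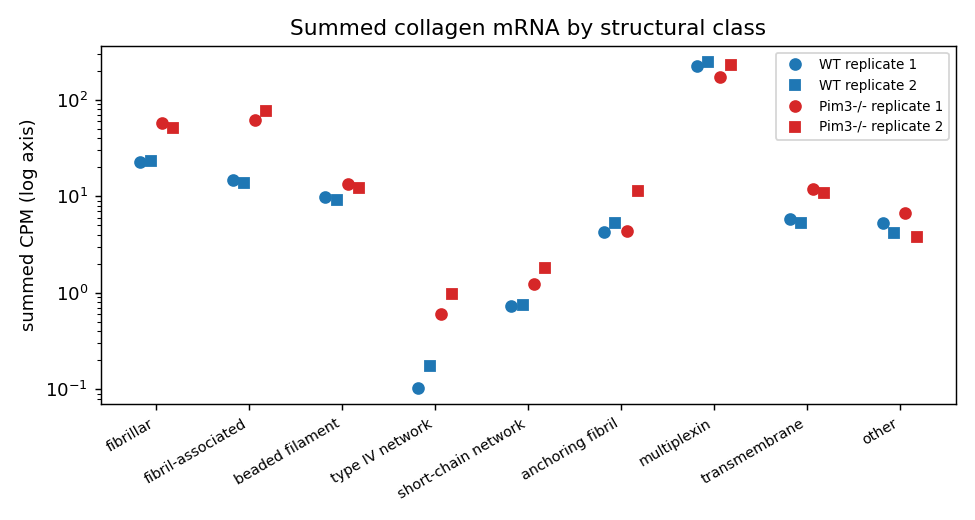
Summed CPM of the collagens of each structural class in the 4 libraries, on a log axis, with circles for replicate 1 and squares for replicate 2. Fibril-associated collagens stand at 13.6 and 14.7 CPM in WT and at 61.2 and 76.3 CPM in Pim3-/-, while the multiplexins, nearly all Col18a1, overlap between the groups.

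Type IX collagen coats the type II fibrils of cartilage, and its molecule takes 1 chain each from Col9a1, Col9a2 and Col9a3. Col9a2 (chr4:121039385-121055322, plus strand) had 8.81 and 7.01 CPM in WT and 32.2 and 40.9 CPM in Pim3-/-. Its log2 fold change was 2.21 (standard error 0.22, edgeR adjusted p = 0.00287). Col9a3 (chr2:180597790-180622189) had 4.28 and 4.06 CPM in WT and 11.3 and 16.9 CPM in Pim3-/-, a log2 fold change of 1.75 (standard error 0.28, edgeR adjusted p = 0.00614). Both genes were above WT in each Pim3-/- library, but Col9a3 missed the threshold without WT replicate 1 (adjusted p = 0.0545) or 2 (0.0527), and 6.07% of its exon bases also belong to Tcfl5 on the other strand. The partner Col9a1 had 0 counts in both WT libraries, 6 in Pim3-/- replicate 1 and 0 in replicate 2. Per kb of exons, the mean level in Pim3-/- was 11.8 CPM for Col9a2, 3.65 CPM for Col9a3 and 0.0222 CPM for Col9a1, so mRNA for the chains of this heterotrimer was very unequal.

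Col20a1 (chr2:180986535-181018363, plus strand) showed the largest fold change among the collagens with more than 3 counts in each WT library. It had 12 and 18 counts in WT, against 233 and 277 counts in Pim3-/-, or 0.71 CPM ± 0.119 (SD, n = 2) and 9.73 CPM ± 1.42 (SD, n = 2). The log2 fold change was 3.76 (standard error 0.33, edgeR adjusted p = 0.00241). Col22a1 (chr15:71795795-72034227, minus strand), a collagen of tissue junctions such as that of muscle and tendon, had 8 and 17 counts in WT, against 171 and 126 in Pim3-/- libraries. This gave a log2 fold change of 3.24 (standard error 0.42, edgeR adjusted p = 0.00408). For both genes the lower Pim3-/- library was far above the higher WT library.

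Col12a1, which links fibrils in tendon and ligament, had 2 and 3 counts in WT, against 27 and 26 in Pim3-/-. The ratio of scaled counts was 8.44, with a 95% counting interval of 3.4 to 27.1 (edgeR adjusted p = 0.0097). Col16a1 had 6 and 13 counts in WT, against 31 and 40 in Pim3-/-, a log2 fold change of 1.58 (standard error 0.51, edgeR adjusted p = 0.0471). Both lost the call without WT replicate 1 (adjusted p = 0.139 for Col12a1 and 0.387 for Col16a1) and without WT replicate 2 (0.107 and 0.167), and Col16a1 also without Pim3-/- replicate 2 (0.0587). The remaining members of the class were close to absent. Col14a1 had 2 and 7 counts in WT, against 4 and 9 in Pim3-/-, and Col19a1 had 3 counts, all in Pim3-/- replicate 1.

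Among the 11 fibrillar collagens 8 were tested and 5 were higher, where 17.6% of all tested genes were higher. Of these 5, Col5a1, Col5a3 and Col2a1 passed the filter by their WT counts, and 14.3% of all genes that pass in this way were higher. The class summed to 22.6 and 23.2 CPM in WT and 56.9 and 51.1 CPM in Pim3-/-. Of the tested members Col5a2, Col11a2 and Col27a1 passed the filter only by their Pim3-/- counts. Type V collagen, which starts fibrils and limits their diameter, contributed most of this mRNA. Col5a1 (chr2:27886425-28039514, plus strand) had 7.98 and 8.65 CPM in WT and 24.8 and 20.6 CPM in Pim3-/-, with a log2 fold change of 1.45 (standard error 0.21, edgeR adjusted p = 0.00514). Col5a3 had 7.46 and 7.90 CPM in WT and 13.5 and 16.8 CPM in Pim3-/-, with a log2 fold change of 0.98 (standard error 0.23, edgeR adjusted p = 0.0167). Col5a2, the usual partner of the Col5a1 chain, had 0.365 and 0.573 CPM in WT and 1.09 and 0.969 CPM in Pim3-/- (log2 fold change 1.11, standard error 0.49, edgeR adjusted p = 0.115) and did not pass the test. Per kb, Pim3-/- ESCs had 2.68 CPM of Col5a1, 2.23 CPM of Col5a3 and 0.107 CPM of Col5a2. Without WT replicate 1 or 2 the adjusted p of Col5a3 was 0.209 or 0.165.

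Collagens II and XI make the fibrils of cartilage and the vitreous. Col2a1 had 66 and 67 counts in WT, against 177 and 182 in Pim3-/-, a log2 fold change of 1.10 (standard error 0.28, edgeR adjusted p = 0.0216). Col11a2 was nearly silent in WT, with 2 and 1 counts, and had 36 and 28 counts in Pim3-/-. The ratio was 17 with a 95% counting interval of 5.56 to 84.6 (edgeR adjusted p = 0.0066). Its partner Col11a1 had 18 and 19 counts in WT, against 45 and 32 in Pim3-/- and did not pass the test (edgeR adjusted p = 0.228). Col27a1, a fibrillar chain of developing cartilage, had 7 and 8 counts in WT, against 37 and 31 in Pim3-/-, a log2 fold change of 1.83 (standard error 0.48, edgeR adjusted p = 0.0238). Without WT replicate 1 the adjusted p was 0.176 for Col2a1, 0.0566 for Col11a2 and 0.223 for Col27a1, and without WT replicate 2 it was 0.242, 0.075 and 0.217. Of the 4 tested cartilage markers 1 was higher and 0 lower, beside 17.6% and 16.2% of all tested genes. Acan, the core protein of the main cartilage proteoglycan, which rose most in CPM on that list, had 36 and 30 counts in WT, against 365 and 157 in Pim3-/-, whereas Sox9, the regulator of cartilage genes, had 11 and 17 counts in WT, against 9 and 3 in Pim3-/- and did not pass the test.

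The collagens of bone, skin and vessels were low in both groups. Col1a1 had 33 and 38 counts in WT, 140 in Pim3-/- replicate 1 and 52 in Pim3-/- replicate 2, and did not pass the test (edgeR adjusted p = 0.118). With all 4 libraries it passed only under scaling by library totals (edgeR adjusted p = 0.0326). Its log2 fold change was 1.61 without Pim3-/- replicate 2 and 0.23 without Pim3-/- replicate 1. Col1a2, which with Col1a1 makes type I collagen, had 30 counts in Pim3-/- replicate 1 and 1 to 3 counts in each other library, and was not tested. Both chains were highest in Pim3-/- replicate 1. Col3a1 had 1 count in all, and Col24a1 had 3 and 1 counts in WT, against 1 and 0 in Pim3-/-.

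Col18a1 (chr10:77052178-77166548, minus strand), a basement membrane collagen with heparan sulfate chains whose end fragment is endostatin, was the most abundant of these collagens in both groups. It had 222 and 244 CPM in WT and 171 and 227 CPM in Pim3-/-, that is 233 ± 15.3 and 199 ± 39.6 CPM (SD, n = 2). The groups overlapped, and the log2 fold change was -0.23 (standard error 0.20, edgeR adjusted p = 0.408). Its sign depended on the scaling, with 0.22 under library totals. The log2 fold change was -0.46 without Pim3-/- replicate 2 and -0.05 without Pim3-/- replicate 1. Per kb of exons its mean was 33.2 CPM in WT and 28.3 CPM in Pim3-/-, above the 2.56 and 11.8 CPM of Col9a2, the next in order. Col15a1, the other multiplexin, passed the filter on low counts only by its Pim3-/- counts. It had 0 and 2 counts in WT, against 26 and 12 in Pim3-/-, a ratio of 15.1 with a 95% counting interval of 3.91 to 130 (edgeR adjusted p = 0.0213). That call was lost without WT replicate 1 (adjusted p = 0.202) or 2 (0.0749), and without Pim3-/- replicate 1 the gene was not tested.

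The minor chains of type IV collagen, which replace Col4a1 and Col4a2 in the basement membranes of kidney, ear and eye, stayed close to the limit of detection. Col4a5 and Col4a6 lie head to head on the X chromosome (chrX:141475385-141689234 and chrX:141165403-141474076), as do Col4a3 and Col4a4 on chromosome 1. Col4a5 had 2 and 2 counts in WT, against 11 and 16 in Pim3-/-, a ratio of 5.38 with a 95% counting interval of 1.87 to 21.1 (edgeR adjusted p = 0.0348). Col4a5 passed the filter on low counts only by its Pim3-/- counts. Without WT replicate 1 or 2, or without Pim3-/- replicate 2, its adjusted p was 0.309, 0.322 or 0.108. Col4a6 had 0 counts in both WT libraries and 2 and 4 in Pim3-/-, which is 1.59 times a floor of 3 counts set for the WT group. With so few counts an increase was not established. Col4a4 had 0 and 1 counts in WT, against 3 in each Pim3-/- library, and Col4a3 had at most 2 counts in any library. For comparison, Col4a1 had 11.9 and 17.0 CPM in WT and 127 and 135 CPM in Pim3-/-, and Col4a2 had 5.74 and 5.43 CPM and 54.6 and 54.3 CPM, with log2 fold changes of 3.18 and 3.29 (edgeR adjusted p = 0.00129 and 0.000808).

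Type VI collagen forms beaded filaments around cells from Col6a1, Col6a2 and a long chain, Col6a3 or one of Col6a4, Col6a5 and Col6a6. Its chains differed in level and in the sign of their fold changes. Col6a4 had 2.61 and 2.47 CPM in WT and 5.50 and 4.30 CPM in Pim3-/-, a log2 fold change of 0.95 (standard error 0.31, edgeR adjusted p = 0.0489). Col6a5 had 5.79 and 5.34 CPM in WT and 4.42 and 5.11 CPM in Pim3-/-, with no overlap between the groups, but its log2 fold change of -0.22 (edgeR adjusted p = 0.548) did not pass the test and became 0.23 under library totals. The common chains Col6a1 and Col6a2 had between 6 and 11 counts in WT and between 14 and 31 in Pim3-/-, and did not pass the test (edgeR adjusted p = 0.164 and 0.0935). Col6a6 had 8 and 11 counts in WT, against 43 and 15 in Pim3-/- (edgeR adjusted p = 0.144), and Col6a3 had 0 and 1 against 6 and 5, a ratio of 8.76 with a 95% counting interval of 1.27 to 377. Without WT replicate 1 or 2 the adjusted p of Col6a4 was 0.304 or 0.325. In Pim3-/- the mean per kb was 0.575 CPM for Col6a4 and 0.506 CPM for Col6a5, against 0.197 CPM for Col6a1 and 0.126 CPM for Col6a2.

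Transmembrane collagens summed to 5.74 and 5.25 CPM in WT and 12.0 and 10.8 CPM in Pim3-/-. Col13a1, known from the neuromuscular junction, had 3.44 and 3.18 CPM in WT and 7.56 and 5.58 CPM in Pim3-/-, a log2 fold change of 0.99 (standard error 0.30, edgeR adjusted p = 0.0372). Col23a1 had 5 and 4 counts in WT, against 24 and 28 in Pim3-/-, a log2 fold change of 2.17 (standard error 0.55, edgeR adjusted p = 0.0213). Col23a1 passed the filter on low counts only by its Pim3-/- counts. Col17a1, a component of hemidesmosomes, had 39 and 41 counts in WT, against 88 and 103 in Pim3-/- and did not pass the test (edgeR adjusted p = 0.0669). In all 3 genes the Pim3-/- libraries were above the WT libraries. The adjusted p without WT replicate 1 or 2 was 0.248 or 0.285 for Col13a1 and 0.182 or 0.247 for Col23a1. Col25a1 had 0 and 2 counts in WT, against 7 and 3 in Pim3-/-, too few for the test.

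Col7a1, the collagen of the anchoring fibrils of skin, differed more between the Pim3-/- libraries than between the groups. It had 4.22 and 5.25 CPM in WT, 4.34 CPM in Pim3-/- replicate 1 and 11.4 CPM in Pim3-/- replicate 2 (edgeR adjusted p = 0.231). Without replicate 1 of Pim3-/- its log2 fold change was 1.24, and without replicate 2 it was -0.15. Col26a1 was highest in Pim3-/- replicate 1, with 180 counts in Pim3-/- replicate 1 and 93 in replicate 2 beside 99 and 93 in WT (edgeR adjusted p = 0.754). Of the short-chain network collagens, Col8a2 of endothelial and corneal membranes had 13 and 13 counts in WT, against 27 and 41 in Pim3-/- (edgeR adjusted p = 0.124). Col8a1 had 0 counts in WT, against 2 and 3 in Pim3-/-, Col10a1, the marker of hypertrophic cartilage, had 1 to 4 counts per library, and Col28a1 had at most 5.

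The Pim3-/- libraries differed from each other in part of the collagens. Col1a1, Col1a2, Col6a6 and Col26a1 were highest in Pim3-/- replicate 1, and Col7a1 and Col6a1 in replicate 2. Col6a1 had 0.524 CPM in replicate 1 and 1.2 CPM in replicate 2. Col15a1, which was higher, had 26 counts in replicate 1 and 12 in replicate 2. Replicate 1 also had more counts of the endoderm factors Sox17 (85 against 10) and Gata6 (240 against 112). The same held for the endocytic adaptor Dab2 (189 against 46) and for Cubn (180 against 10). Other markers of the primitive endoderm list had similar counts in replicates 1 and 2 (Gata4, 187 and 173, and Lama1, 2797 and 2620). Some had more in replicate 2 (Thbd, 4 and 20, and Foxa2, 5 and 7). The part of this in the collagen counts was not tested. Col9a2, Col9a3, Col5a1, Col2a1, Col20a1, Col22a1 and Col12a1, which were all higher, differed by less than 1.5 times between the Pim3-/- libraries in CPM. Both groups of genes in this comparison were named after their values were seen.

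The 250 bases before the start of the gene were examined in the promoters of RefSeq on GRCm38.p6, which held 36 starts of 33 collagens. Col2a1, Col9a3, Col12a1 and Col22a1, which were higher, had no window. Col6a2 and Col18a1, which were not called, and Col9a1, which was not tested, entered with more than 1 window. Those of Col6a2 overlap. A GC box (GGGCGG on either strand) was found in 58.3% of the collagen windows and 32.7% of all 32851 windows. It was present in 9 of 12 windows of collagens that were higher, in 8 of 11 of tested collagens that were not called and in 4 of 13 of collagens that were not tested. A TATA box (TATAAA) occurred in 13.9% of the collagen windows and 12.4% of all, and CCAAT, in either orientation, in 30.6% and 33.8%. The median number of CpG dinucleotides was 14.5 in windows of collagens that were higher, 7 in those not called, 3 in those not tested and 6 in all windows. These letters are a description of the windows and not of bound factors. The windows of Col5a1 (chr2:27886175-27886424) and Col20a1 (chr2:180986285-180986534), both on the plus strand, are shown because both genes were higher while their windows differ, with 28 CpG and 76.4% G and C in the former and 1 CpG and 49.2% in the latter. Capitals mark GC boxes, of which the Col20a1 window has 0.
Col5a1: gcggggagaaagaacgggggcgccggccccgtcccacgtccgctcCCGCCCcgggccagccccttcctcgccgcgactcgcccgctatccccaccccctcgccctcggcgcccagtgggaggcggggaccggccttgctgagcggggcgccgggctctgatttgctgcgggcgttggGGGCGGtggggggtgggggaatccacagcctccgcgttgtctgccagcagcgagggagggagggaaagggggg
Col20a1: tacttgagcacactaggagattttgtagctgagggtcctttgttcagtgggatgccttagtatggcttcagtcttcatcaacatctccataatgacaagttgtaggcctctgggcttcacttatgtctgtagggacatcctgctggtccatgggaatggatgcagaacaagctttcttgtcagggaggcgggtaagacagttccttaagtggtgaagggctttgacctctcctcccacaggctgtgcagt

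The enzymes that modify collagen were examined next, because chains cannot fold without them. Of 18 tested genes for modification and folding 7 were higher and 1 was lower, beside 17.6% and 16.2% of all tested genes, with a median log2 fold change of 0.34, and their summed level was 1250 to 1270 CPM in WT and 1580 to 1740 CPM in Pim3-/-. P4ha1, a catalytic subunit of prolyl 4-hydroxylase, which makes the helix stable at body temperature, had 51.5 and 50.7 CPM in WT and 225 and 315 CPM in Pim3-/-, a log2 fold change of 2.40 (standard error 0.22, edgeR adjusted p = 0.0025). The related subunit P4ha2 had 10.3 and 11.5 CPM in WT and 126 and 101 CPM in Pim3-/-, a log2 fold change of 3.38 (standard error 0.20, edgeR adjusted p = 0.000808). A further subunit, P4ha3, was low, with 1 and 0 counts in WT, against 10 in each Pim3-/- library. The lysyl hydroxylase Plod2, which prepares cross-links, had 36.1 and 39.0 CPM in WT and 114 and 157 CPM in Pim3-/- (log2 fold change 1.85, edgeR adjusted p = 0.00338). The prolyl 3-hydroxylase P3h2 had 0 counts in WT, against 37 and 11 in Pim3-/-, which is 12.7 times the floor. P4ha3 and P3h2 passed the filter on low counts only by their Pim3-/- counts, so these calls are no measure of direction. Ppib, a prolyl isomerase of the endoplasmic reticulum, was the gene that was lower, with 373 and 327 CPM in WT and 207 and 183 CPM in Pim3-/- (log2 fold change -0.84, edgeR adjusted p = 0.0145). The call on Ppib was lost under library totals, where 12 genes of the list were higher and 0 lower. The omission of WT replicate 1 or 2 left 3 or 4 genes higher and 0 lower.

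Of the 10 genes for export in the large COPII carriers 1 was higher and 1 lower, which is near the shares of all tested genes (17.6% and 16.2%), and the median log2 fold change was -0.15. Sec24d, the cargo adaptor needed for procollagen, had 20.2 and 23.9 CPM in WT and 32.6 and 40.0 CPM in Pim3-/- (log2 fold change 0.72, edgeR adjusted p = 0.025). The coat protein Sec13 had 230 and 215 CPM in WT and 120 and 72.7 CPM in Pim3-/- (log2 fold change -1.20, edgeR adjusted p = 0.0121). The list had 0 calls without WT replicate 1, and 0 higher and 1 lower without WT replicate 2.

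Outside the cell, 5 of 12 tested genes for trimming and cross-linking were higher and 0 lower, beside 17.6% and 16.2% of all tested genes, with a median log2 fold change of 0.99. Loxl2, a lysyl oxidase that cross-links type IV collagen, had 7.25 and 6.35 CPM in WT and 54 and 103 CPM in Pim3-/-, a log2 fold change of 3.53 (standard error 0.32, edgeR adjusted p = 0.0026). Loxl1, which acts on elastic fibres, had 1.77 and 1.28 CPM in WT and 11.1 and 11.4 CPM in Pim3-/- (log2 fold change 2.89, edgeR adjusted p = 0.00304). Lox itself, the main enzyme for fibrils, had 0 counts in WT, against 12 and 19 in Pim3-/-, which is 8.23 times the floor. Lox and Adamts2 passed the filter on low counts only by their Pim3-/- counts, so these calls are no measure of direction. Adamts2, which removes the amino-terminal propeptide of fibrillar collagens, had 6 and 1 counts in WT, against 39 and 34 in Pim3-/- (edgeR adjusted p = 0.0179), and the convertase Furin had 12.6 and 13.1 CPM against 24.7 and 35.0 CPM (edgeR adjusted p = 0.00839). In each of these 5 genes both Pim3-/- libraries were above both WT libraries, but 3 and 2 genes of the list were higher without WT replicate 1 and 2.

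**Figure D4:**
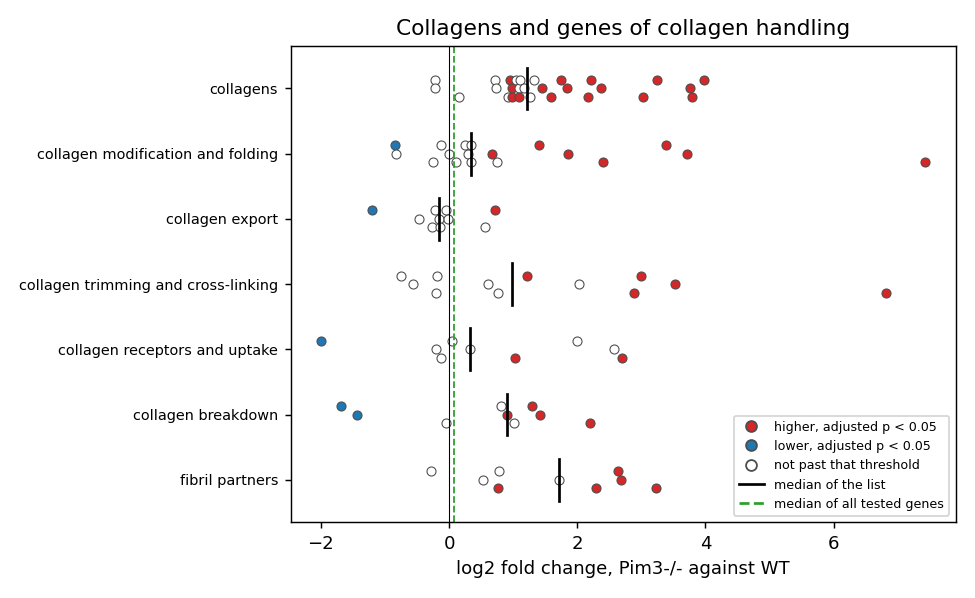
Log2 fold changes, Pim3-/- against WT, of the 28 tested collagens and of the tested genes of 6 lists for the handling of collagen, 1 point per gene, with the list median as a black line and the median of all tested genes, 0.07, dashed. Red points were higher and blue points lower at an adjusted p of 0.05, and the points farthest to the right, P3h2 and Lox, had 0 counts in WT, so that their fitted values depend on the prior count.

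Of the 9 tested receptors and uptake genes 2 were higher and 1 was lower, close to the 17.6% and 16.2% of all tested genes. Mrc2, the endocytic receptor for collagen fragments, had 16 and 18 counts in WT, against 171 and 110 in Pim3-/- (log2 fold change 2.70, edgeR adjusted p = 0.00492). Ddr2, a receptor tyrosine kinase for fibrillar collagen, had 38 and 45 counts in WT, against 115 and 98 in Pim3-/- (log2 fold change 1.03, edgeR adjusted p = 0.0417). Itga1, a chain of the integrin that binds type IV collagen, had 22 and 13 counts in WT, against 5 and 6 in Pim3-/- (log2 fold change -2.0, edgeR adjusted p = 0.0389). The list had 0 genes lower under 6 alternatives, among them the omission of either WT library, when 1 gene was higher.

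For the breakdown of collagen 4 of 9 tested genes were higher and 2 lower, where the shares of all tested genes were 17.6% and 16.2%. The membrane-bound collagenase Mmp14 had 7.35 and 7.54 CPM in WT and 15.6 and 24.4 CPM in Pim3-/- (log2 fold change 1.42, edgeR adjusted p = 0.00893), and its relative Mmp15 had 3.49 and 4.06 against 17.4 and 17.4 CPM (log2 fold change 2.20, edgeR adjusted p = 0.00304). The gelatinase Mmp2 and the inhibitor Timp2 were higher as well, with log2 fold changes of 0.90 and 1.29. The inhibitor Timp1 had 89.9 and 78.6 CPM in WT and 25.5 and 27.1 CPM in Pim3-/- (log2 fold change -1.68, edgeR adjusted p = 0.00287). Pepd, the peptidase that releases proline from collagen fragments, had 75.9 and 78 CPM in WT and 24.1 and 33.1 CPM in Pim3-/- (log2 fold change -1.43, edgeR adjusted p = 0.00467). The omission of either WT library left 1 gene of the list higher.

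Among the fibril partners 5 of 9 tested genes were higher and 0 lower, beside 17.6% and 16.2% of all tested genes, with a median log2 fold change of 1.71. Bgn, a small proteoglycan on fibrils, had 5 and 7 counts in WT, against 109 and 35 in Pim3-/- (log2 fold change 3.23, edgeR adjusted p = 0.0117). Comp, a cartilage protein that binds collagens II and IX, had 5 and 8 counts in WT, against 58 and 44 in Pim3-/- (log2 fold change 2.63, edgeR adjusted p = 0.00881). The log2 fold changes of Tnxb, Fbn1 and Fbln1 were 2.68, 2.30 and 0.76. Bgn, Comp and Tnxb passed the filter on low counts only by their Pim3-/- counts, so these calls are no measure of direction. The fibril proteoglycans Lum, Fmod and Kera had 0 counts in all libraries. Most of these calls needed both WT libraries, since 1 gene of the list was higher without WT replicate 1 and 0 without WT replicate 2.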

How the data were processed

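Total RNA of 2 WT and 2 Pim3-/- samples was made into mRNA-seq libraries. The authors deposited raw counts per gene without normalization. Per the study's methods reads were trimmed with Cutadapt, mapped with Hisat2 to mm10 and assigned to Ensembl genes, whereas the submitters' processing notes list Trim Galore, STAR and featureCounts on GRCm38. Use of the strand and of multi-mapping reads is not given in the sources used here, so overlapping genes are uncertain. The deposited table of transposable elements was not used.

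The filter on low counts was filterByExpr in edgeR 4.0.16, set to a count of 10 and a total of 15, and 18444 of 31418 genes with a count passed. Counts were scaled by TMM factors and compared by the quasi-likelihood test of edgeR, and p-values were adjusted after Benjamini and Hochberg over all tested genes. Standard errors are the absolute log2 fold change over the square root of F. For genes with at most 3 counts in each WT library, ratios of scaled counts have exact conditional binomial 95% intervals, and WT groups at 0 were set to 3 counts. Intervals cover counting error only, and p-values measure the spread between 2 libraries per group. Values set against the floor leave out the counting error of the Pim3-/- libraries, so they are not lower limits. Levels per kb use the union of GENCODE M21 exons. The steps were tested on simulated counts of 18444 genes with 2 libraries per group. Of 200 changed genes 143 were recovered (71.5%), and 15 of 158 calls were false (9.49%). DESeq2 1.42.0, limma 3.58.1, R 4.3.3, Python 3.11.15 and matplotlib 3.10.9 were used. With 1 library left out, the lone sample was assumed to vary like the other group. Where 1 Pim3-/- library was left out, the spread between the clones was therefore not measured.

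The collagens and the gene lists were chosen with earlier results of these data known. Collagens are named with full statistics if the adjusted p was under 0.05, if they are among the 5 of highest level per kb or if they assemble with one of these. Of each list, up to 5 genes per direction with the largest fold changes past that threshold are named.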

Additional observations from a re-analysis of the deposited data

How the results depend on the processing

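Results are given for the 10 alternatives, with edgeR's test unless stated. The number of collagens higher was 14 with size factors of DESeq2, 21 with library totals, 13 without a filter, 9 with at least 10 counts in every library (16 tested), 10 by the DESeq2 Wald test and 3 to 19 with 1 library left out. At least 3-fold higher were 3 with 10 counts in every library and 3 to 11 with 1 library left out. Lower were 0 to 1 with 1 library left out, the 1 being Col18a1. The median log2 fold change was 1.66 with library totals, 1.07 with 10 counts in every library and 1.16 to 1.42 with 1 library left out. Values that turned sign were 0.22 (Col18a1) and 0.23 (Col6a5) with library totals, and with 1 library left out Col26a1 ran from -0.38 to 0.53, negative without Pim3-/- replicate 1 or WT replicate 2, and Col7a1 from -0.15 to 1.24, negative without Pim3-/- replicate 2. The cause was not tested.

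With the replicate number as a replicate block, 15 collagens were higher, with a median of 1.13, and 2 genes of modification and folding lower, 2 of export higher and 1 of trimming and cross-linking lower. Deviations of same-numbered libraries correlated at 0.016, so the numbers were not taken to pair the samples.

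Among the lists, library totals gave 12 higher and 0 lower for modification and folding, 2 higher for export, 8 for trimming and cross-linking, 5 higher and 0 lower for receptors and uptake, and 8 for fibril partners. Modification and folding had 2 lower with size factors of DESeq2 and by the Wald test. Without a filter 1 gene of trimming and cross-linking was lower and 0 of receptors. With 10 counts in every library, higher were 2 of export, 3 of trimming and cross-linking and 3 fibril partners, and 0 receptors were lower. The Wald test gave 1 receptor higher, 0 lower, and 1 gene of trimming and cross-linking lower. With 1 library left out the ranges were 3 to 10 higher and 0 to 5 lower for modification and folding, 0 to 3 higher and 0 to 4 lower for export, 2 to 8 higher and 0 to 3 lower for trimming and cross-linking, 1 to 5 higher and 0 to 1 lower for receptors and uptake, 1 to 5 higher and 2 to 3 lower for breakdown and 0 to 7 higher and 0 to 1 lower for fibril partners.

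Depth limits the 14 untested collagens, 13 of which had under 10 counts in every library.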
